A study of Rattus norvegicus with 56 samples.

Results

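The cortical thick ascending limb (cTAL) of the rat kidney was profiled 3 h after its ureter was tied, in 4 libraries from obstructed kidneys and 4 from sham-operated kidneys. These 8 libraries are all those titled cTAL at 3 h, out of 48 libraries with values in the series' tables and 56 samples listed. The animals were male Sprague-Dawley rats of 120 to 160 g. In the obstructed arm, called UUO for unilateral ureteral obstruction, the left ureter was ligated, and in the sham arm it was exposed and left untied. Tubule segments were microdissected by hand, and both the cTAL and the cortical collecting duct (CCD) were taken at 30 min and at 3 h. Each cTAL group holds 4 libraries numbered 1 to 4, and each CCD group holds 2 libraries for every number. The labels do not say whether the numbers stand for separate rats, so the p-values measure the spread between these samples, some of which may be technical.

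The thick ascending limb reabsorbs salt without water and so dilutes the urine and builds the medullary gradient that drives water conservation. An apical sodium-potassium-chloride cotransporter brings in salt, apical potassium channels recycle potassium, and the resulting lumen-positive voltage drives calcium and magnesium between the cells through claudin pores. The same cells make uromodulin and epidermal growth factor, carry receptors for vasopressin, parathyroid hormone and extracellular calcium, and lie upstream of the tied ureter.

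The segment's own markers were the most abundant of those examined. The sum of 13 thick ascending limb markers was 40366, 46213, 43186 and 66626 TPM in sham 1 to 4 and 39432, 34839, 39650.3 and 36942 TPM in UUO 1 to 4, led by uromodulin (Umod). Umod alone made up 2.84% to 5.84% of all transcripts, and mitochondrially encoded genes 9.20% to 12.9%. Between 9585 and 10056 genes reached 1 TPM in each library, and the mean Spearman correlation with the other libraries of the same arm was 0.910 to 0.939. TPM is an abundance scaled to gene length and to a fixed total in each library, from which the number of reads is not known, so no counting error can be given. Transcripts of other cells were present and did not stay equal between the arms. The sum of 11 proximal tubule markers was 779, 523, 916 and 1229 TPM in sham 1 to 4 and 3494, 2695, 1527 and 2032 TPM in UUO 1 to 4, a 2.82-fold higher level in UUO (exact two-sided permutation p = 0.0286, the smallest that 4 against 4 allows). The sum of 10 macrophage markers was 818, 1351, 713 and 1163 TPM in sham 1 to 4 and 386, 131, 443 and 405 TPM in UUO 1 to 4, a 3.16-fold lower level in UUO (exact permutation p = 0.0286). The sum of 9 endothelial markers ranged from 78.6 to 411 TPM in sham and 62.7 to 98.1 TPM in UUO (exact permutation p = 0.0571). The red blood cell sum was 5.96-fold higher in UUO but overlapped, at 29.8 to 3161 TPM in sham and 1834 to 11335 TPM in UUO (exact permutation p = 0.143). The distal convoluted and connecting tubule sum was 3.10-fold higher in UUO, also with overlap (exact permutation p = 0.229). The principal cell sum was 618, 91.2, 123 and 102 TPM in sham 1 to 4 and 160, 118, 52.4 and 86.9 TPM in UUO 1 to 4, with sham 1 the highest, and neutrophil markers stayed at or under 5.98 TPM in all 8 libraries. Of 16 such sums, only those for thick ascending limb, proximal tubule and macrophage had arms that did not overlap, and with adjustment over the 16 none passed (Benjamini-Hochberg adjusted p = 0.152). In pooled tubules, fewer cells of a type and less RNA per cell cannot be told apart.

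**Figure D1:**
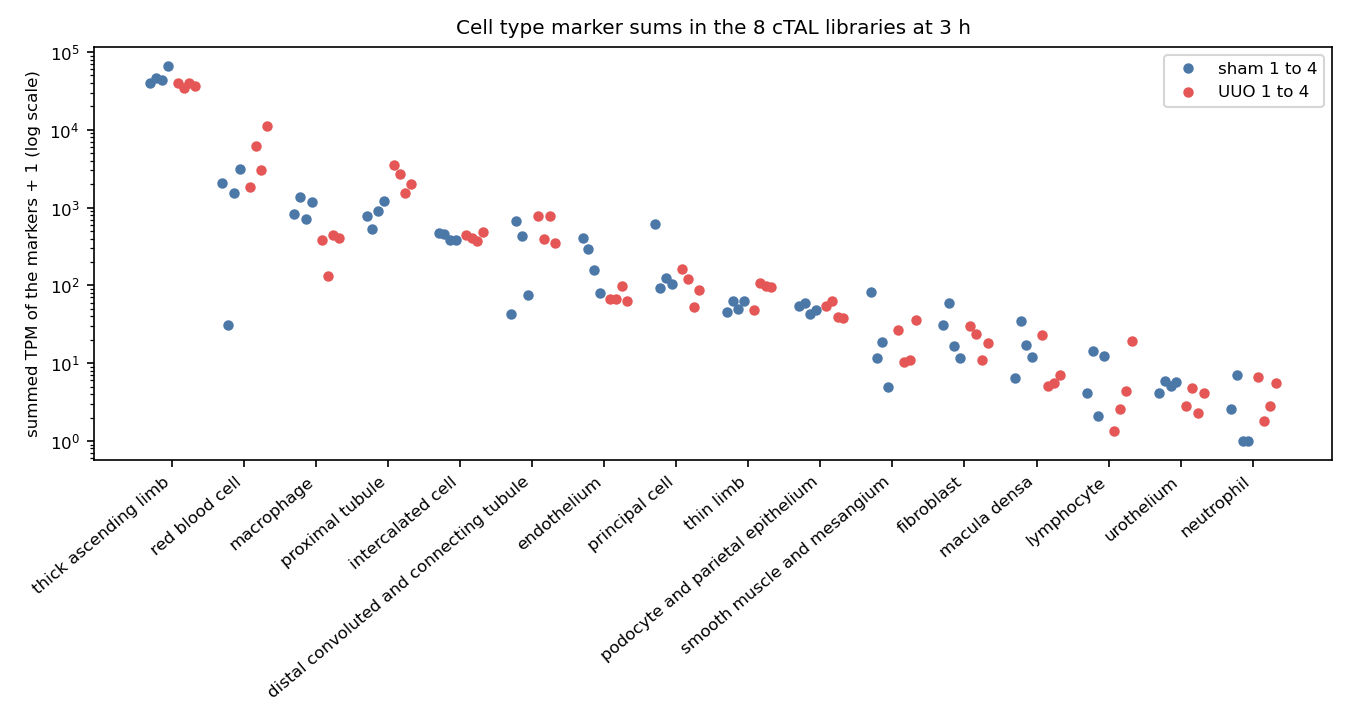
Summed TPM of 16 cell type marker lists, plus 1, on a log axis; each blue point is a sham library and each red point a UUO library, in the order 1 to 4. The thick ascending limb sum is far above the others in all 8 libraries, the proximal tubule points are higher in UUO and the macrophage points are lower in UUO, with no overlap in either.

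At 3 h the limb's expression had shifted widely. Of 10023 genes tested, 1173 passed an adjusted p of 0.05 (11.7%), with 407 higher in UUO (4.06%) and 766 lower (7.64%). Here and throughout, a change is the UUO minus sham difference of log2(TPM + 1) ± its standard error, tested by limma with Benjamini-Hochberg adjustment over all genes tested, and it understates the change of low genes. Of the genes that passed, 344 rose by at least 1 log2 unit and 434 fell by at least 1. Among those called, 42 of the higher genes reached 1 TPM in UUO only and 38 of the lower genes in sham only, so the filter on low values selected them by the arm where they were high, and such genes named below are given by their values with no test. The 4 UUO values lay wholly above or below the 4 sham values for 1985 genes (19.8%). The median of all genes was -0.12, and rescaling the libraries by median-of-ratios brought it to 0.0068 and the calls to 492 higher and 414 lower, so the share of higher genes among those called went from 34.7% to 54.3%. Of the 1173 called genes, 823 were not called, or no longer met the filter, in at least 1 fit without 1 library. The number called also depended on each library. It was 714 without sham 1, 439 without sham 2, 577 without sham 3 and 596 without sham 4. It was 988 without UUO 1, 776 without UUO 2, 776 without UUO 3 and 638 without UUO 4.

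In the machinery of salt transport, the apical potassium channel gene had the smallest adjusted p. Among 26 transport genes tested, 2 rose and 3 fell (19.2%, against 11.7% of all genes), with a list median of -0.23; the higher count was 0 without sham 1 or UUO 2 and 1 without each of the others. Kcnj1 encodes the apical channel (ROMK) that returns potassium to the lumen. It was 699, 729, 887 and 739 TPM in sham 1 to 4 and 344, 424, 338 and 411 TPM in UUO 1 to 4. Every UUO library was below every sham library, a fall of 1.01 ± 0.12 (adjusted p = 0.00152), and it passed in each of the 8 fits without 1 library. Cldn10, which forms the paracellular sodium pore, had 1682, 1735, 1713 and 1992 TPM in sham 1 to 4 and 1249.6, 1108, 1458 and 1268 TPM in UUO 1 to 4. The arms again did not overlap, with a smaller change of -0.49 ± 0.10 (adjusted p = 0.0184; 0.0508 without sham 2). After median-of-ratios rescaling the Cldn10 change was -0.34, with adjusted p = 0.173. Wnk1, a kinase upstream of the cotransporter's activating phosphorylation, was lower at -1.10 ± 0.21 (adjusted p = 0.0118). In the other direction, the sodium pump subunit Atp1b1 was 348, 504, 399 and 222 TPM in sham 1 to 4 and 556, 1009.5, 1003 and 683 TPM in UUO 1 to 4. Its rise of 1.15 ± 0.26 (adjusted p = 0.0231) did not pass without sham 1 (0.0539), UUO 2 (0.0604) or UUO 3 (0.0565). Kcnj16, a subunit of the basolateral potassium channel, was higher by 0.83 ± 0.23 (adjusted p = 0.0466) and kept that call only in the fit without UUO 3, with an adjusted p of up to 0.117 in the others.

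Several defining genes of the limb did not pass. Umod, the most abundant of these transcripts, was 33549.9, 38294, 34951 and 58425 TPM in sham 1 to 4 and 33411, 28439, 33298 and 31123 TPM in UUO 1 to 4. The UUO values were all below the sham values, of which sham 4 was the highest, and the difference of -0.35 ± 0.16 did not pass (adjusted p = 0.174). Slc12a1, the furosemide-sensitive cotransporter, was 262, 366, 450.1 and 402 TPM in sham 1 to 4 and 405, 677, 264 and 276 TPM in UUO 1 to 4. The arms overlapped, with a 95% interval of -0.59 to 0.69 log2 units around 0.05. The magnesium and calcium pore genes Cldn16 and Cldn19 were at -0.068 ± 0.13 and -0.30 ± 0.13 (adjusted p = 0.787 and 0.164), and Egf was -0.067 ± 0.17 (adjusted p = 0.842). Sostdc1, a secreted antagonist of bone morphogenetic protein signalling and a marker of this segment, fell by 0.67 ± 0.14 (adjusted p = 0.0163), and after median-of-ratios rescaling its adjusted p was 0.0815. Among 14 transcription factors of the segment, Tfap2b fell by 1.56 ± 0.23 (adjusted p = 0.00393) and the epithelial factor Elf3 rose by 1.18 ± 0.24 (adjusted p = 0.0155). Klf15 and Hnf4a also passed as higher, at 1.83 ± 0.51 and 1.60 ± 0.38. Klf15 kept its call only without UUO 1 (0.0212; up to 0.104 otherwise), and Hnf4a, a proximal tubule factor at 7.71, 4.14, 2.53 and 3.74 TPM in UUO 1 to 4, lost it without sham 1, 2 or 4 or UUO 2 or 4 (up to 0.0788). The list's 3 rises (21.4%, against 4.06% of all genes) came down to 1 without sham 1, 2 or 4 or UUO 2 or 4.

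Hormone receptors were lower where they passed. Of 19 tested rows of the receptor and cyclic AMP list (18 genes, Gnas having 2 rows), none rose and 3 fell, with a median of -0.41. That was 15.8%, where 11.7% of all genes were called and 7.64% fell. Avpr2 encodes the antidiuretic vasopressin receptor, through which the hormone stimulates salt transport here. It was 63.5, 66.5, 67.3 and 68.5 TPM in sham 1 to 4 and 20.2, 26.5, 25.8 and 19.3 TPM in UUO 1 to 4. The sham libraries were nearly equal and all UUO libraries were well below them, a fall of 1.51 ± 0.16 (adjusted p = 0.00113). Avpr2 is also a principal cell gene, and the part of those cells in its fall was not tested. Aqp2, their water channel, was 361, 0.34, 4.34 and 0.41 TPM in sham 1 to 4 and 51, 22.3, 10.4 and 16.9 TPM in UUO 1 to 4, with sham 1 far above the rest and no call (adjusted p = 0.559). Without sham 1 it passed as higher at 3.37 (adjusted p = 0.0198). Agtr1a, an angiotensin receptor, was 50.4, 40.9, 32.3 and 51.7 TPM in sham 1 to 4 and 17.2, 18.1, 22.1 and 23.1 TPM in UUO 1 to 4. It fell by 1.07 ± 0.20 (adjusted p = 0.0124), and neither Agtr1a nor Avpr2 lost its call in a fit without 1 library. Casr, the calcium-sensing receptor that restrains salt and calcium uptake, was 90.1, 144, 161 and 179 TPM in sham 1 to 4 and 60, 91.7, 54.4 and 46.3 TPM in UUO 1 to 4. UUO 2 was just above sham 1, and the change of -1.18 ± 0.26 (adjusted p = 0.0198) did not pass without sham 2, 3 or 4 or UUO 4 (up to 0.0557). The parathyroid hormone receptor gene Pth1r was -0.21 ± 0.20 (adjusted p = 0.54), and Ptger3, a prostaglandin E receptor gene, was -0.76 ± 0.75 with UUO 1 at 2.21 TPM (adjusted p = 0.557).

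Transcription factor genes of the immediate early class rose. Of 7 AP-1 factors tested, 4 passed and all were higher (57.1%, against 4.06% of all genes), with a list median of 2.57. Of 22 other immediate early genes, 11 rose (50%, against 4.06% of all genes) and none fell, at a median of 1.36. Atf3, a stress-induced member of the family, was 0.06, 1.03, 1.58 and 1.65 TPM in sham 1 to 4 and 50.8, 33.4, 39 and 71.4 TPM in UUO 1 to 4. It went from at most 1.65 TPM in sham to at least 33.4 TPM in UUO, a change of 4.61 ± 0.36 (adjusted p = 0.000215). Fos was 2.1, 26.1, 2.3 and 3.66 TPM in sham 1 to 4 and 182, 76.8, 81.7 and 333 TPM in UUO 1 to 4. Sham 2 stood above the other sham libraries, but every UUO value was higher still, and the change was 4.55 ± 0.70 (adjusted p = 0.00515). Jun and Junb, which pair with Fos, rose by 2.57 ± 0.41 and 3.56 ± 0.71 (adjusted p = 0.00556 and 0.0146). Btg2, an antiproliferative gene that recruits messenger RNA deadenylases, was 19.2, 12.8, 11.8 and 12 TPM in sham 1 to 4 and 98.2, 196, 210 and 380.1 TPM in UUO 1 to 4. Its change of 3.76 ± 0.35 (adjusted p = 0.000528) came with no overlap and with a sham spread of only 11.8 to 19.2 TPM. Zfp36, whose product destabilises cytokine transcripts, was 22.9, 42.9, 17.1 and 20 TPM in sham 1 to 4 and 169, 316, 179.9 and 326 TPM in UUO 1 to 4. It rose by 3.24 ± 0.31 (adjusted p = 0.000667). Myc, at 0.52, 2.35, 0.73 and 0.5 TPM in sham 1 to 4, rose by 3.17 ± 0.39 to 9.7, 17.1, 14.1 and 28.3 TPM in UUO 1 to 4 (adjusted p = 0.00192). Klf6 and Klf10, zinc finger factors induced by growth and stress signals, rose by 1.66 ± 0.19 and 2.17 ± 0.29. Egr1 rose by 2.29 ± 0.41 but stayed low, at 5.21 to 20.2 TPM in UUO (adjusted p = 0.00979). The AP-1 count was 4 or 5 in each fit without 1 library, and the immediate early count was 8 to 12, lowest without sham 4.

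**Figure D2:**
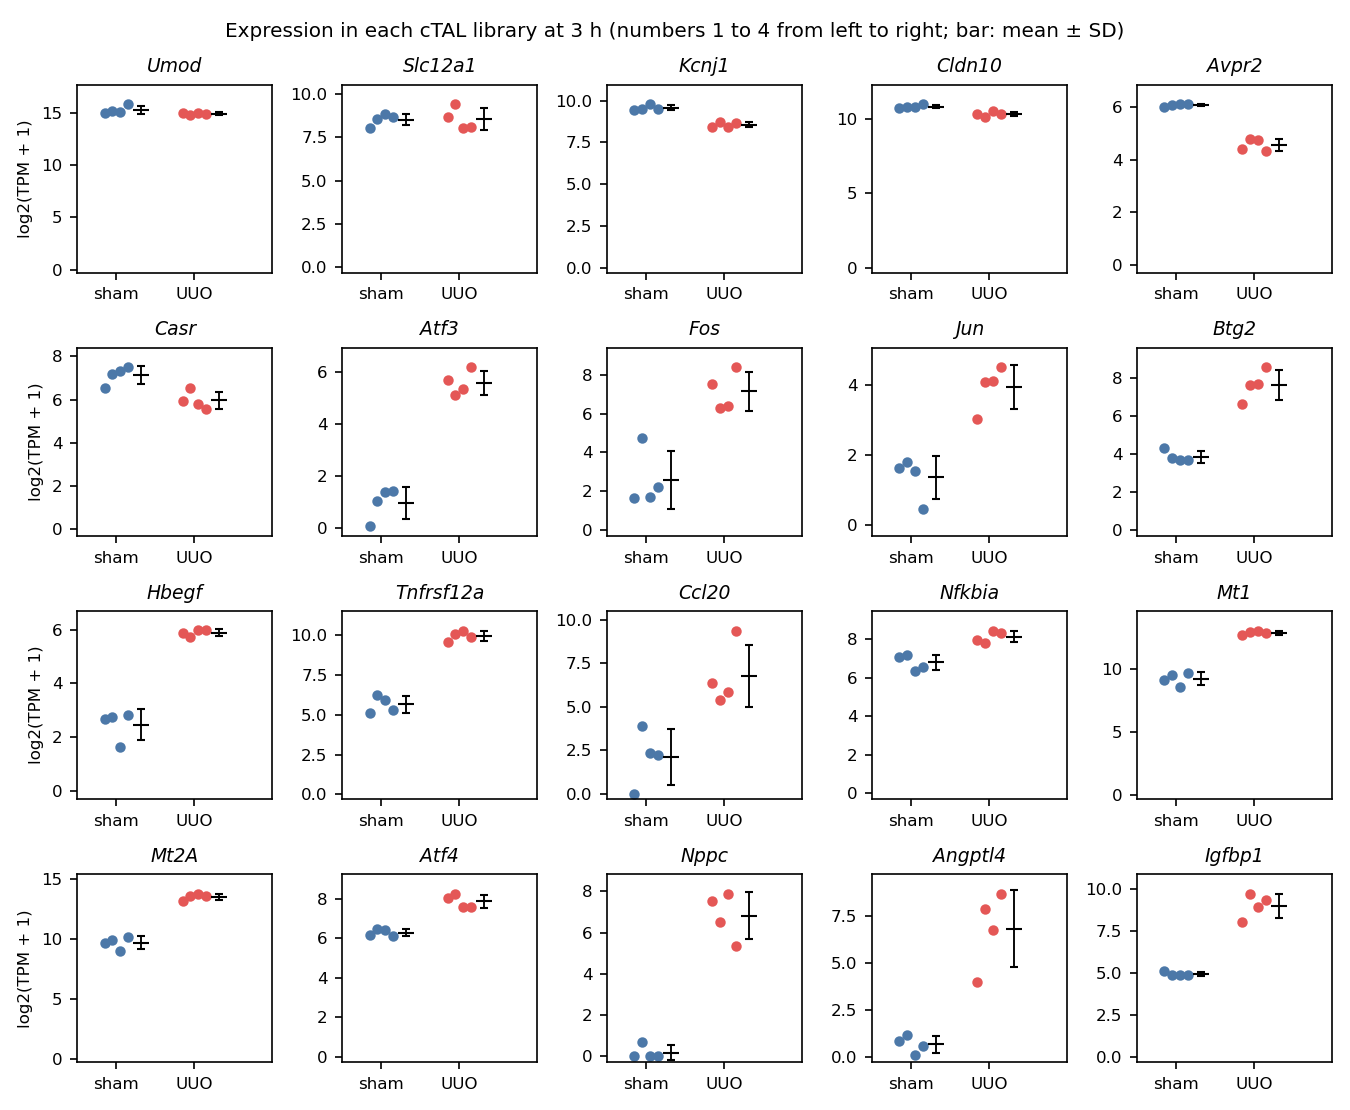
Log2(TPM + 1) of 20 genes in each of the 4 sham (blue) and 4 UUO (red) cTAL libraries at 3 h, in the order 1 to 4, with the mean and SD beside each arm. Umod and Slc12a1 did not pass, though every Umod value in UUO is below every sham value. Kcnj1, Avpr2 and Casr are lower in UUO, and the AP-1, chemokine, metallothionein and secreted factor genes are higher in UUO with no overlap.

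Feedback and stress genes of growth factor and kinase signalling rose alongside them. Of 10 genes in a list of MAP kinase feedback inhibitors and Gadd45 genes, 6 rose and 1 fell, at a median of 1.19. The shares were 60% and 10%, against 4.06% and 7.64% of all genes. The 6 were Dusp1, Errfi1, Spry2, Gadd45a, Gadd45b and Gadd45g. The count of rises was 4 without sham 3 or 4 or UUO 2, 3 or 4, 5 without sham 1 or 2, and 6 without UUO 1. The fall, of Dusp14, was kept only without UUO 1 or UUO 2 among the fits leaving out 1 library. Errfi1, an intracellular inhibitor of the epidermal growth factor receptor, was 9.93, 10.1, 7.01 and 5.34 TPM in sham 1 to 4 and 45.3, 164, 90.6 and 88.5 TPM in UUO 1 to 4. It rose by 3.33 ± 0.36 (adjusted p = 0.00113). Gadd45b, which activates stress kinases, rose by 3.73 ± 0.38 (adjusted p = 0.00092). Gadd45a and Gadd45g rose by 0.98 ± 0.12 and 2.15 ± 0.46 from sham levels of 437 ± 63.5 and 312 ± 178 TPM (SD, n = 4). Hbegf, a ligand of the same receptor, was 5.42, 5.68, 2.1 and 6.18 TPM in sham 1 to 4 and 58.1, 52, 62 and 61.9 TPM in UUO 1 to 4. The UUO values spanned only 52 to 62 TPM and lay far above sham, a change of 3.42 ± 0.28 (adjusted p = 0.000228). Hbegf was the only one of 7 tested members of the epidermal growth factor family to pass (14.3%, against 11.7% of all genes). Areg, another ligand of the receptor, did not reach the filter and was at most 0.64 TPM in any library.

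A chemokine and NF-kB response was present and was uneven between libraries. Of 19 NF-kB genes tested, 6 rose (31.6%, against 4.06% of all genes) and none fell, at a median of 0.64. Of 21 cytokine and chemokine genes, 4 rose (19.0%) and 1 fell (4.76%, against 7.64% of all genes), at a median of 0.39. The fall, of Il34, was kept only without sham 2, UUO 2 or UUO 3. The NF-kB count was 3 without sham 1, 3 or 4 or UUO 3 and 8 at most, and the count of higher cytokine genes was 2 without sham 2 or 3 or UUO 4 and 3 without any other. Il19, counted among the 4, passed the filter through UUO only. Ccl20, a chemokine for lymphocytes and dendritic cells, was 0, 14, 4.03 and 3.75 TPM in sham 1 to 4 and 82.4, 40.6, 57.5 and 658 TPM in UUO 1 to 4. UUO 4 was far above the other UUO libraries, all of which were above sham, and the change was 4.63 ± 0.94 (adjusted p = 0.0155). Cxcl1, a neutrophil attractant, was 1.69, 0, 0.73 and 1.44 TPM in sham 1 to 4 and 15.1, 9.24, 16.6 and 12.3 TPM in UUO 1 to 4. The UUO libraries were close to each other and the change was 2.93 ± 0.36 (adjusted p = 0.00199). Ccl2, a monocyte attractant, rose by 2.29 ± 0.62 (adjusted p = 0.0408) with UUO 3 at 39.7 TPM and UUO 2 at 2.85 TPM. That call held only without UUO 2 (0.0263) or UUO 3 (0.048) and had an adjusted p of up to 0.101 in the other limma fits. Nfkbia, the inhibitor that NF-kB itself induces, was 135, 146, 80.5 and 92 TPM in sham 1 to 4 and 249, 226, 349 and 314 TPM in UUO 1 to 4. It rose by 1.34 ± 0.22 (adjusted p = 0.00635) with no overlap. Birc3, a ubiquitin ligase of the pathway, rose by 3.32 ± 0.48 (adjusted p = 0.00407). Icam1, an adhesion molecule for leukocytes, went from 1.08, 5.08, 1.36 and 5.28 TPM in sham 1 to 4 to 12.8, 21.4, 28.3 and 92.2 TPM in UUO 1 to 4 (adjusted p = 0.0138). The granulocyte factor gene Csf3 was at most 0.19 TPM in any cTAL library.

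Tnfrsf12a stood out in the TNF receptor family, where 2 of 7 tested genes rose and 1 fell. These were 28.6% and 14.3%, against 4.06% and 7.64% of all genes. The fall, of Tnfsf10, was kept only without UUO 4. Tnfrsf12a encodes Fn14, the receptor of the cytokine TWEAK, and was 32.9, 75.6, 59.6 and 38.9 TPM in sham 1 to 4 and 769, 1079, 1245 and 932 TPM in UUO 1 to 4. The lowest UUO library was far above the highest sham library, and the change of 4.31 ± 0.25 had an adjusted p of 2.72e-05. Tnfrsf21, a death-domain receptor, rose by 1.99 ± 0.32 (adjusted p = 0.00598). Of 14 genes of interleukin-6 type signalling 3 rose (21.4%, against 4.06% of all genes), namely Socs3, Pim3 and Osmr. Without sham 3, UUO 2 or UUO 4 that count was 1. Socs3, a feedback inhibitor of that pathway, was 1.37, 2.45, 0.41 and 0 TPM in sham 1 to 4 and 2.71, 70.1, 78.2 and 108 TPM in UUO 1 to 4. UUO 1 was next to the sham range while the other UUO libraries were above 70 TPM, and the change of 4.40 ± 0.95 (adjusted p = 0.0193) did not pass without sham 3 (0.0503), UUO 2 (0.0518) or UUO 4 (0.053). Pim3, a kinase induced by the same pathway, rose by 2.82 ± 0.40 (adjusted p = 0.00374).

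The 250 bases before the start of Ccl20, Cxcl1 and Nfkbia are shown because these genes rose together and each window holds a match to the 10-base NF-kB motif, on either strand, written in capitals. The motif searched was 3 G, any 3 bases, then TTCC. The sequences are RefSeq's, build GRCr8, read 5′ to 3′ on the gene's strand. Ccl20 lies at chr9:91836909-91837158 on the plus strand, Cxcl1 at chr14:17479322-17479571 on the minus strand and Nfkbia at chr6:78597073-78597322 on the minus strand.
Ccl20: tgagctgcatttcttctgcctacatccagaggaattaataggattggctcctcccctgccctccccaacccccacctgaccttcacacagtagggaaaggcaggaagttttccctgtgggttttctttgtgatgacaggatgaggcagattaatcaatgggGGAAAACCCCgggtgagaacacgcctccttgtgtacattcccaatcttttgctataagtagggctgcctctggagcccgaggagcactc
Cxcl1: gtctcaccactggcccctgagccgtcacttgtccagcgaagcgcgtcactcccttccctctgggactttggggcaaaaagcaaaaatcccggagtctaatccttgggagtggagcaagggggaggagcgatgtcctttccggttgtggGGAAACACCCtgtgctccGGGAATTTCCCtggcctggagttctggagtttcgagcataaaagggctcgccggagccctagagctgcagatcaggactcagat
Nfkbia: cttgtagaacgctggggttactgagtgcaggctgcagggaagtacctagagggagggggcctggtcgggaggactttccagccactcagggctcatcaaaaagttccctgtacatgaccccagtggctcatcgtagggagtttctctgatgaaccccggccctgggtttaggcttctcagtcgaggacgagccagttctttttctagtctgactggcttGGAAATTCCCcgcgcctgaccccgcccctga
Ccl20 had 1 match, starting 89 bases before the gene, and Nfkbia had 1, starting 31 bases before it. Cxcl1 had 3 matches, starting 102, 84 and 83 bases before the gene, the last 2 overlapping on opposite strands. The motif was present in 4.54% of 24206 promoters in the table, in 5.59% of 6855 tested genes with a promoter entry, in 7.04% of 270 called higher and in 4.27% of 539 called lower. The AP-1 motif (TGANTCA) was present in 7.78% of called higher and 4.64% of called lower genes, against 4.36% of tested genes, and the cyclic AMP response motif in 3.7% and 1.3%, against 3.01%. A match is a string in this window and was not tested as a site.

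Metallothioneins were among the most abundant genes that rose. Of 24 tested rows in the list of NRF2 targets and metallothioneins (23 genes), 13 rose, Ftl1 with 2 rows, and none fell, at a median of 0.65. The rises were 54.2% of the rows, against 4.06% of all genes. Mt1 and Mt2A encode small proteins that bind zinc and copper. Mt1 was 574, 737, 384 and 839.8 TPM in sham 1 to 4 and 6503, 7967, 8373 and 7505 TPM in UUO 1 to 4. Mt2A was 823, 996, 505 and 1152 TPM in sham 1 to 4 and 9299, 12176, 13900.2 and 12109 TPM in UUO 1 to 4. Every UUO library was far above every sham library, and the changes were 3.63 ± 0.21 and 3.82 ± 0.23 (adjusted p = 2.72e-05 and 2.72e-05). Mt1m, listed as a pseudogene by RefSeq, rose by 3.81 ± 0.40, and reads of these near-identical copies may be divided among them by the counting. Fth1, the ferritin heavy chain that stores iron, was 12278, 12477, 12409 and 10826 TPM in sham 1 to 4 and 19291, 17867, 18599.6 and 18560.3 TPM in UUO 1 to 4. Its change was small but even, at 0.63 ± 0.073 (adjusted p = 0.00149). Osgin1, induced by oxidative stress, rose by 2.92 ± 0.39 (adjusted p = 0.00274). Hmox1, the haem-degrading enzyme, was 4.67, 4.63, 2.89 and 2.25 TPM in sham 1 to 4 and 6.18, 24.3, 13.4 and 26 TPM in UUO 1 to 4. It passed as higher at 1.86 ± 0.43 (adjusted p = 0.0244) and lost that call without sham 2, 3 or 4 or UUO 2 or 4 (up to 0.0658). The list's count was 8 to 13 in the fits without 1 library, lowest without UUO 4.

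The promoters of Mt1 and Mt2A are shown because they carry repeats of a loose form of the metal response motif. That motif was chosen after the values were seen. Matches to TGCNCNC on either strand are in capitals, in the 250 bases before each start (RefSeq, build GRCr8, minus strand, 5′ to 3′), at chr19:10832976-10833225 and chr19:10838709-10838958.
Mt1: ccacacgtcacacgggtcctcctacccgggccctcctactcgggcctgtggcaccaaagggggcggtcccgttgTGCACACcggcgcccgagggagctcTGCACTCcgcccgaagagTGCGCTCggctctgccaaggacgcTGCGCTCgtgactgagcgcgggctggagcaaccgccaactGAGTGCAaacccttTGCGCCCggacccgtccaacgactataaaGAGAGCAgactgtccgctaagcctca
Mt2A: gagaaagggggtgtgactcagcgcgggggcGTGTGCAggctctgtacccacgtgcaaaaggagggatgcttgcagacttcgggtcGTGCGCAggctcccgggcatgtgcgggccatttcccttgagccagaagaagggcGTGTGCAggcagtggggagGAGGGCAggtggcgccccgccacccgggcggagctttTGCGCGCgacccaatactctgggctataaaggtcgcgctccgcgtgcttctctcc
Mt1 held 7 matches and Mt2A 5 to this pattern, in which any base may stand at N. A match is a string and was not tested as a site. A short motif of this kind is common, since 53.1% of tested promoters and 51.9% of those of called higher genes held at least 1, while 3 or more stood in 6.55% of tested promoters and 5.93% of those called higher.

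Genes of the integrated stress response and heat shock proteins rose in smaller numbers. Of 27 genes in the list of unfolded protein and integrated stress responses, 9 rose (33.3%, against 4.06% of all genes) and none fell, at a median of 0.56. Among the 9, Chac1, Slc7a1 and Trib1 passed the filter through UUO only. The count of rises was 4 without UUO 2, 5 without sham 3 or 4 or UUO 3 or 4, and at most 7 without another. Atf4, the transcription factor at the centre of the response, was 70.7, 86.2, 83.2 and 69.2 TPM in sham 1 to 4 and 260.3, 304, 192 and 194 TPM in UUO 1 to 4. It rose by 1.58 ± 0.17 (adjusted p = 0.00113). Ppp1r15a, which restores translation by directing a phosphatase to its target, rose by 1.84 ± 0.23 (adjusted p = 0.00199). Trib3 and Nupr1, both downstream of Atf4, rose by 1.98 ± 0.33 and 1.52 ± 0.28 (adjusted p = 0.00789 and 0.0106). Chac1, a glutathione-degrading enzyme, was at most 0.27 TPM in sham and 8.65, 11.3, 5 and 2.83 TPM in UUO 1 to 4. Of 26 heat shock genes, 6 rose (23.1%, against 4.06% of all genes) and none fell, at a median of 0.15. That count of rises was 4 without sham 4 or UUO 2, 3 or 4, and 7 without UUO 1. Hspa1b, an inducible chaperone whose reads may be shared with the near-identical Hspa1a, was 1.36, 6.27, 0.93 and 1.48 TPM in sham 1 to 4 and 15.5, 34, 30 and 29.2 TPM in UUO 1 to 4. It rose by 3.17 ± 0.44 (adjusted p = 0.00297). Cryab, a small heat shock protein, was 59.2, 4.4, 76.1 and 12.8 TPM in sham 1 to 4 and 187, 183, 185 and 197 TPM in UUO 1 to 4. The UUO libraries were alike while sham 2 and 4 were far lower than sham 1 and 3, and the change of 2.96 ± 0.71 (adjusted p = 0.0275) was lost without sham 4 or UUO 2, 3 or 4 (up to 0.0647). The constitutive Hspa8 rose by 0.47 ± 0.094 (adjusted p = 0.0151; 0.0522 without sham 2).

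A list of steroid receptor targets, which shares members with lists above, also held many rises. Of 13 glucocorticoid and aldosterone targets tested, 8 rose (61.5%, against 4.06% of all genes) and none fell, at a median of 1.81. Among the 8, Errfi1 and Dusp1 are also counted above with the feedback genes, Klf9 with the immediate early genes and Klf15 with the transcription factors. The count was 4 without sham 4, 5 without sham 2 or UUO 4, and up to 10 without another. Sgk1, a kinase that promotes sodium transport, was 91.1, 108, 39.5 and 35.7 TPM in sham 1 to 4 and 433, 396, 334 and 394 TPM in UUO 1 to 4. It rose by 2.64 ± 0.33 (adjusted p = 0.00199). Tsc22d3, the anti-inflammatory leucine zipper GILZ, was 80, 78, 49 and 28.5 TPM in sham 1 to 4 and 309, 592, 469.7 and 408 TPM in UUO 1 to 4. Its change was 2.97 ± 0.32 (adjusted p = 0.00113), and neither gene lost its call without 1 library. Fkbp5, a chaperone of the glucocorticoid receptor, rose by 1.81 ± 0.31 (adjusted p = 0.0085). Klf9 rose by 1.25 ± 0.28 (adjusted p = 0.0213) and was not past the threshold without sham 2 (0.0599) or sham 4 (0.056).

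The largest rises included genes of secreted factors and small GTPases. Nppc, the precursor of C-type natriuretic peptide, was listed at 0 in sham 1, 3 and 4 and at 0.63 TPM in sham 2. In UUO 1 to 4 it was 186, 89.6, 235 and 39.9 TPM, and it passed the filter through these libraries only. Angptl4, a secreted inhibitor of lipoprotein lipase, was 0.79, 1.25, 0.07 and 0.48 TPM in sham 1 to 4 and 14.9, 229, 106 and 409 TPM in UUO 1 to 4. UUO 1 was far below the other UUO libraries and still above sham, and the change was 6.15 ± 0.83 (adjusted p = 0.00288). Igfbp1, which binds insulin-like growth factors, was 33.5, 28.8, 28.1 and 28.4 TPM in sham 1 to 4 and 254, 823, 483 and 635 TPM in UUO 1 to 4. The sham libraries were close to each other and far below UUO, and the change was 4.04 ± 0.30 (adjusted p = 0.00016). Sfn, the epithelial adaptor 14-3-3 sigma, rose by 4.69 ± 0.48 (adjusted p = 0.000923). Rasd1, a small GTPase induced by glucocorticoids, was 9.92, 6.58, 2.42 and 1.52 TPM in sham 1 to 4 and 57.6, 44.9, 124 and 226 TPM in UUO 1 to 4. It rose by 4.18 ± 0.58 (adjusted p = 0.00309). Rnd1, a GTPase that loosens actin fibres, was 3.77, 1.03, 1.4 and 2.35 TPM in sham 1 to 4 and 5.44, 53.5, 116 and 188 TPM in UUO 1 to 4. UUO 1 was just above sham 1, the change was 4.15 ± 0.88 (adjusted p = 0.0183), and it narrowly missed the threshold without sham 2 (0.0508). Csrp3, a LIM protein best known from muscle, rose by 4.25 ± 0.59 (adjusted p = 0.0033), also with UUO 1 the lowest at 11.8 TPM.

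Among injury markers, the keratin genes Krt8 and Krt18 rose and UUO 1 was the low library for several others. Of 24 injury and keratin genes, 4 rose (16.7%, against 4.06% of all genes) and none fell, at a median of 0.38. The count was 2 without UUO 3 or UUO 4 and 7 without UUO 1, when 1 also fell. Krt18, an epithelial keratin, was 28.1, 25.8, 9.84 and 13.4 TPM in sham 1 to 4 and 57.3, 56.7, 49.4 and 54 TPM in UUO 1 to 4. It rose by 1.57 ± 0.30 (adjusted p = 0.0136). Its partner Krt8 rose by 0.64 ± 0.17 (adjusted p = 0.0371) and kept the call only without sham 4 or UUO 4 (up to 0.0843). S100a6 rose by 1.10 ± 0.25 (adjusted p = 0.0227; 0.0594 without UUO 4), and the cell cycle inhibitor Cdkn1a, counted among the 4, went from 0.55, 0.57, 0.49 and 0.89 TPM in sham 1 to 4 to 2.92, 5.1, 3.48 and 8.07 TPM in UUO 1 to 4, passing the filter through UUO only. Lcn2, the injury marker also called NGAL, was 2.78, 6.23, 1.37 and 6.14 TPM in sham 1 to 4 and 1.56, 46.7, 34.3 and 39.5 TPM in UUO 1 to 4. UUO 1 was within the sham range and the other UUO libraries were above 34 TPM, so the change of 2.14 ± 0.85 did not pass (adjusted p = 0.131) and did pass without UUO 1 (3.14, adjusted p = 0.00341). Spp1, osteopontin, was 250.4, 241, 138 and 517 TPM in sham 1 to 4 and 261, 1281, 1151 and 756 TPM in UUO 1 to 4. The same library lay within the sham range, and the adjusted p was 0.0796 with it and 0.015 without it. Cldn4, a tight junction gene, was 1.08 ± 0.34 with adjusted p = 0.0644, and 0.0108 without UUO 1. Krt19 was -0.26 ± 0.32 and Clu -0.63 ± 0.29, with overlapping arms (adjusted p = 0.649 and 0.18). Havcr1, the gene of kidney injury molecule KIM, did not pass the filter and was at most 1.13 TPM, and Gdf15 was at most 0.89 TPM.

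Among structural lists, 3 of 13 YAP targets tested rose (Ctgf, Amotl2 and Ajuba; 23.1%, against 4.06% of all genes), and the count was 1 without sham 3 or UUO 2 and 5 without UUO 1. Ctgf, a matricellular protein, was 1.58, 3.84, 3.7 and 1.55 TPM in sham 1 to 4 and 28.4, 12.8, 16.6 and 25.9 TPM in UUO 1 to 4. It rose by 2.58 ± 0.35 (adjusted p = 0.00297). Cyr61, its relative, was at most 1.39 TPM and did not pass the filter. Of 26 actin cytoskeleton genes 4 rose (15.4%), a count of 3 or 4 in the fits without 1 library. They included the focal adhesion protein Zyx at 1.66 ± 0.31 and the myosin light chain Myl12a at 0.92 ± 0.12 (adjusted p = 0.0113 and 0.00274). Among 19 junction genes 1 rose and 2 fell (15.8% called, against 11.7% of all genes), with Cldn10, given above, among the falls. Cldn3 rose by 1.47 ± 0.23 (adjusted p = 0.00515) and Cldn8, a claudin of the distal nephron, fell by 0.63 ± 0.12 (adjusted p = 0.0121). Without sham 2 the count of falls in that list was 1 in place of 2, and the count of rises was 3 without UUO 1 and 2 without UUO 3. No member passed among 31 ribosomal protein rows (30 genes), 13 mitochondrially encoded genes, 28 genes of fatty acid oxidation and the tricarboxylic acid cycle, 16 apoptosis regulators, 16 genes of TGF-beta signalling and matrix, 13 clock genes or 9 mechanosensitive channels, tested with limma. At an unadjusted p under 0.05 the numbers were 2, 0, 5, 6, 4, 2 and 1 in the same order. Without UUO 1, 3 genes of the TGF-beta list rose and 1 fell, 1 fatty acid oxidation gene and 1 clock gene rose, and 1 apoptosis gene fell. Without UUO 4, 1 TGF-beta gene rose and 1 apoptosis gene fell, and without sham 4, 2 clock genes rose. Of 43 rows for 39 nuclear oxidative phosphorylation genes 3 passed (6.98%, against 11.7% of all genes), both rows of Cycs as higher and Ndufs8 as lower. Their changes were at most 0.34 log2 units, and none of the 3 passed in every fit without 1 library. In the 31 hypoxia and glycolysis genes 3 rose and 1 fell (12.9% called, against 11.7% of all genes). There 1 rose without sham 1, 2 or 3 or UUO 2 or 4 and 5 without UUO 3. The fall was kept only without sham 1, UUO 1 or UUO 3. Of 22 p53 and cell cycle genes 3 rose (13.6%), and 5 without UUO 1. The 3 were Btg2, Gadd45a and Cdkn1a, each also counted in a list above. Of 10 prostaglandin genes the receptor gene Ptgfr rose (10%), which was not called without sham 2. Beside these shares, 4.06% of all genes rose and 11.7% were called. The mitophagy receptor Bnip3 was 244, 299.8, 319 and 396 TPM in sham 1 to 4 and 575, 848, 1148 and 846 TPM in UUO 1 to 4. It rose by 1.42 ± 0.21 (adjusted p = 0.00424) and kept that call in all 8 fits without 1 library. Ptgs2, the inducible cyclooxygenase of the macula densa, was -0.69 ± 0.64 with overlapping arms (adjusted p = 0.528).

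**Figure D3:**
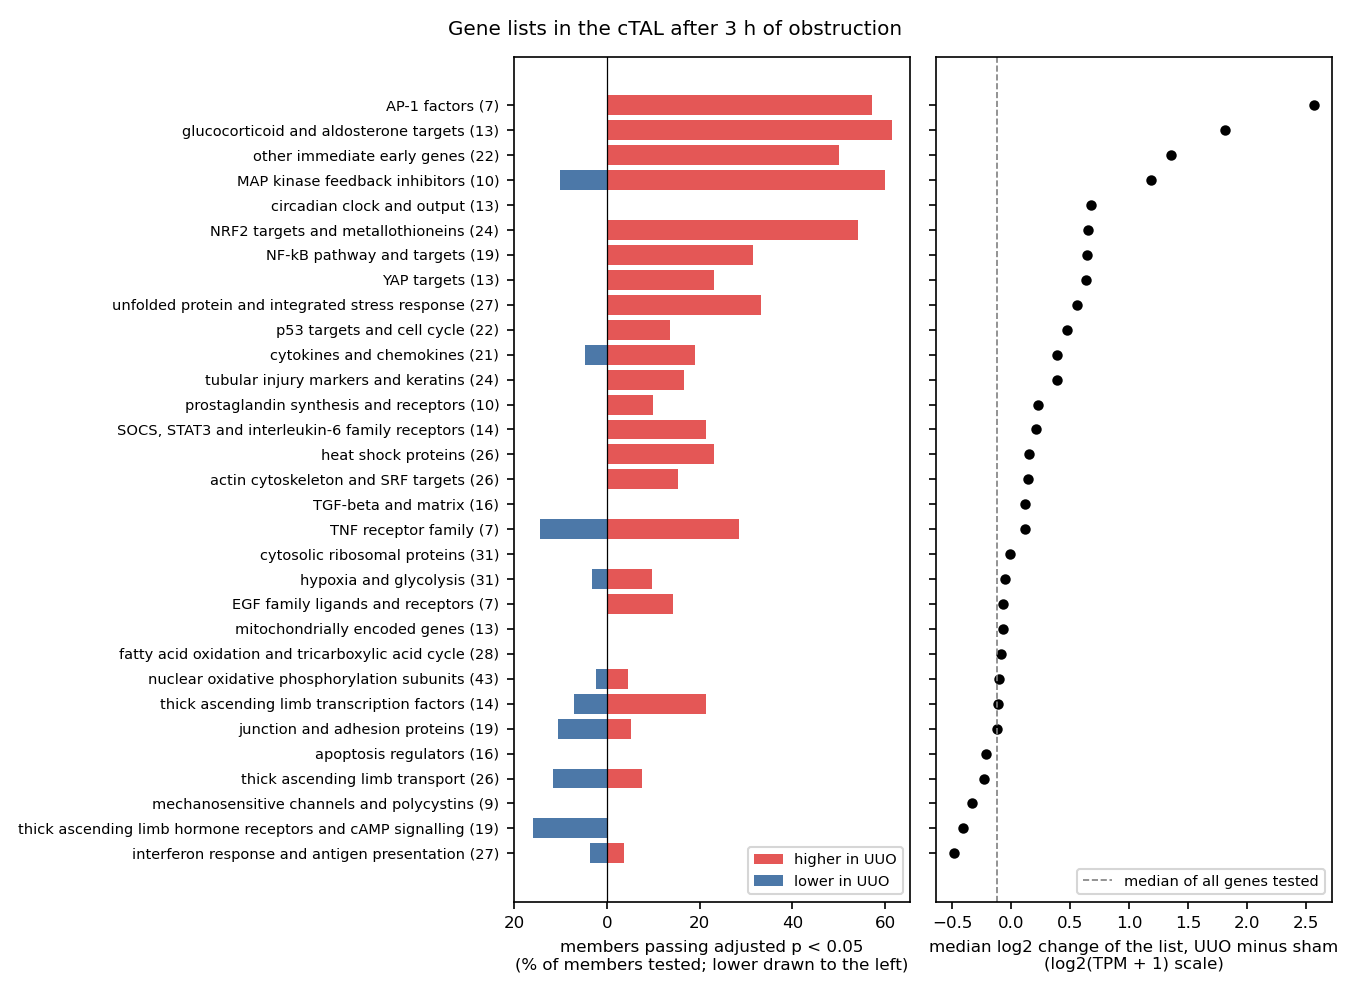
Left, the percentage of tested members of each of 31 gene lists that passed as higher (red) or lower (blue, drawn leftward) in UUO; right, the median log2 change of the list, with the median of all 10023 genes dashed; the number of rows tested is in brackets. AP-1 factors have the highest median, at 2.57, and the lists of salt transport and hormone receptors lie below the median of all genes. The list of MAP kinase feedback inhibitors includes the Gadd45 genes.

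Proximal tubule genes were among the rises. Of 11 markers tested, 7 rose and none fell, where 4.06% of all genes rose and 7.64% fell. Lrp2, counted among the 7, was at most 0.51 TPM in sham and passed the filter through UUO only. Gpx3, a secreted glutathione peroxidase made mainly by proximal tubule, was 98.7, 13.1, 245 and 204 TPM in sham 1 to 4 and 2896, 2640.3, 286 and 1559 TPM in UUO 1 to 4. UUO 3 was barely above sham 3, and the change of 3.89 ± 0.94 (adjusted p = 0.0285) was lost without sham 1 or UUO 1, 2 or 4 (up to 0.0728). Slc5a2, the glucose transporter of the early proximal tubule, was 0.11, 0, 2 and 0.6 TPM in sham 1 to 4 and 35.4, 37.9, 1.9 and 7.81 TPM in UUO 1 to 4. UUO 3 lay inside the sham range, and the call (adjusted p = 0.0294) held only without sham 3 or UUO 3 (up to 0.078). Cyp2e1 rose by 3.37 ± 0.53 and Pck1, which makes glucose from lactate, by 2.63 ± 0.55 (adjusted p = 0.00547 and 0.017). The organic anion transporter gene Slc22a6 rose by 2.63 ± 0.60 (adjusted p = 0.023) and lost the call without sham 1 or 2 or UUO 2 or 4 (up to 0.0569). Spp2, a secreted phosphoprotein, was 1.55, 0, 0 and 5.46 TPM in sham 1 to 4 and 118, 46, 12.2 and 37.7 TPM in UUO 1 to 4. It rose by 4.35 ± 0.74 (adjusted p = 0.00776). Spink1l, a protease inhibitor gene, was 3.97 ± 0.96 (adjusted p = 0.0282), lost without sham 4 or UUO 1, 2 or 4 (up to 0.0705). With the proximal tubule sum as a covariate, which itself did not overlap between the arms, 96 of the 1173 calls were kept. That fit cannot separate these transcripts from obstruction, so a call kept or lost in it does not tell which changes follow them. Without UUO 1 and 2 together, the libraries with the most of these transcripts, 504 genes passed and 420 of the 1173 were kept. Without these 2 libraries all 4 AP-1 calls, Mt1, Mt2A, Tnfrsf12a, Hbegf, Btg2, Igfbp1, Avpr2 and Kcnj1 were kept, and Wnk1, Cldn10, Atp1b1, Kcnj16, Agtr1a, Trib3, Nupr1 and Fkbp5 were lost. The higher count went from 9 to 2 in the integrated stress list, from 6 to 2 in the heat shock list, from 4 to 1 in the actin list, from 3 to 1 in the YAP list, from 11 to 7 in the immediate early list and from 8 to 5 in the glucocorticoid list, and transport went from 5 calls to 1. With the proximal tubule covariate the 4 AP-1 calls were kept, as were Mt1, Mt2A, Tnfrsf12a, Hbegf, Btg2, Igfbp1 and Kcnj1. None of the 3 hormone receptor calls was kept with it (Avpr2 adjusted p = 0.056), nor any cytokine, injury or YAP call.

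Cd200, a membrane protein that restrains myeloid cells and is found on endothelium, was 86.6, 30.5, 29.3 and 14.7 TPM in sham 1 to 4 and 2.2, 1.67, 0.65 and 0 TPM in UUO 1 to 4. It fell by 4.13 ± 0.53 (adjusted p = 0.00264). Lgals9, a galectin, was 22.9, 43.7, 20.7 and 13.4 TPM in sham 1 to 4 and 0, 2.23, 2.99 and 2.13 TPM in UUO 1 to 4. Its fall was 3.25 ± 0.49 (adjusted p = 0.00458). Pycard, the inflammasome adaptor ASC, was 26, 29.6, 27.1 and 21.9 TPM in sham 1 to 4 and 4.87, 2.59, 2.54 and 6.65 TPM in UUO 1 to 4. It fell by 2.47 ± 0.30 (adjusted p = 0.00173). Clec4a3, a lectin of myeloid cells, fell by 2.54 ± 0.42 and Plek, of platelets and leukocytes, by 2.63 ± 0.55 (adjusted p = 0.00681 and 0.0176). Rgs18, a blood cell regulator of G proteins, was 6.1, 8.17, 9.85 and 5.89 TPM in sham 1 to 4 and 0.75, 0, 0 and 0.67 TPM in UUO 1 to 4, and it passed the filter through sham only. Rac2, a GTPase of blood cells, was lower by 2.44 ± 0.68 (adjusted p = 0.0454) and passed in only 1 of 8 fits without 1 library, that without UUO 4 (up to 0.113). Fcer1g, an adaptor of immune receptors, was 122, 141, 115 and 159 TPM in sham 1 to 4 and 23.7, 9.03, 40 and 67.1 TPM in UUO 1 to 4. It fell by 2.22 ± 0.48 (adjusted p = 0.019; 0.0517 without sham 2).

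Other large falls were in genes of varied roles. Lrrc66, a leucine-rich repeat gene, was 45.8, 27.8, 46.4 and 48.9 TPM in sham 1 to 4 and 2.59, 3.45, 4.51 and 4.32 TPM in UUO 1 to 4. The arms were far apart, with a fall of 3.18 ± 0.26 (adjusted p = 0.000228). Lipg, a lipase of phospholipids, was 19.5, 17.1, 33.1 and 30.1 TPM in sham 1 to 4 and 2.85, 3.24, 2.4 and 4.43 TPM in UUO 1 to 4. It fell by 2.59 ± 0.29 (adjusted p = 0.00127). The remaining genes of the 15 largest falls were Fam167b (-3.09), Tmem255b (-2.65), the ciliary gene Hyls1 (-2.48), the chondroitin sulphate enzyme gene Csgalnact1 (-2.43), Wscd1 (-2.43) and the vesicle GTPase gene Rab3a (-2.33). All 6 passed in every fit without 1 library.

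Some markers of macrophages and endothelium fell, where 7.64% of all genes did. Lyz2, which held most of the macrophage sum, was 689, 1020.2, 549 and 890.5 TPM in sham 1 to 4 and 257, 67.2, 269 and 252 TPM in UUO 1 to 4. It fell by 2.04 ± 0.41 (adjusted p = 0.0151). Csf1r, the receptor for the macrophage growth factor, fell by 1.68 ± 0.31 (adjusted p = 0.0102), and so, as the third of 3 falls among 8 tested markers, did Cd68 by 1.57 ± 0.45 (adjusted p = 0.049, kept only without UUO 4 and up to 0.129 otherwise). The complement gene C1qb overlapped, at 45.6 to 103.7 TPM in sham and 21.9 to 52.7 TPM in UUO. Cd163 was at 0 in every library. Of 7 endothelial markers tested 4 fell, among them Eng by 1.82 ± 0.34 and Cdh5 by 1.69 ± 0.37 (adjusted p = 0.0119 and 0.0203; Cdh5 0.0597 without sham 2). With the macrophage sum as a covariate, which itself did not overlap between the arms, 9 of the 1173 calls were kept. How much of the falls follows these cells was not tested beyond that.

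The response differed from that of the collecting duct in named genes. In CCD at 3 h, 1373 of 10530 genes passed (13.0%). Of the 1093 genes called in cTAL and tested in CCD, 435 were called in both (39.8%), and 427 of the 435 had the same direction. The 435 were 34.2% of the 1273 CCD calls that were tested in cTAL. A direct test of the difference, cTAL change minus CCD change, passed for 51 of 11084 genes (0.460%), 26 in the direction of cTAL and 25 of CCD. That count was 35 without UUO 4, 12 without UUO 1, 7 without sham 1 and 1 without each of the others, and it was 4 with the numbers as a block. Hist1h1c, a linker histone gene, was 163, 121, 101 and 70.9 TPM in sham 1 to 4 and 453, 685, 1037 and 661 TPM in UUO 1 to 4. In CCD it was 802 ± 214 TPM in sham and 431 ± 97.2 TPM in UUO, and the difference in change was 3.52 ± 0.25 (adjusted p = 0.00227). Rasd1 was 0.11 ± 0.19 in CCD, a difference of 4.07 ± 0.48 (adjusted p = 0.0307). Igfbp1 and Btg2 were 0.62 ± 0.31 and 0.58 ± 0.29 in CCD, with differences of 3.42 ± 0.40 and 3.19 ± 0.33 (adjusted p = 0.0307 and 0.0279). For Nppc the CCD means were 0.0638 ± 0.128 TPM in sham and 4.62 ± 7.81 TPM in UUO, with no test given for the reason above. Jun was -0.18 ± 0.28 in CCD and Sgk1 0.61 ± 0.40, with differences of 2.75 ± 0.41 and 2.03 ± 0.33 (adjusted p = 0.0345 and 0.045). Pim3 and Spp2 also differed, by 2.06 ± 0.30 and 3.20 ± 0.47, as did the intermedin gene Adm2 and the LIM-only gene Lmo4, by 3.08 ± 0.46 and 3.02 ± 0.43. Adm2 passed within cTAL (adjusted p = 0.0385) but only without UUO 3 among the fits without 1 library (up to 0.0888), and Lmo4 rose there by 1.64 ± 0.33 (adjusted p = 0.0155).

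In the opposite direction stood genes that rose in CCD, among them Ifit3, Ifit2 and Ifitm1. Ifit3, an antiviral gene, was -0.64 ± 0.75 in cTAL (adjusted p = 0.624) and 3.41 ± 0.61 in CCD (adjusted p = 0.0111). The difference was -4.06 ± 0.67 (adjusted p = 0.0482), and for Ifit2 it was -3.64 ± 0.52 (adjusted p = 0.0345). Ifitm1 differed by -2.75 ± 0.46 (adjusted p = 0.0489). RT1-S3, a class I histocompatibility gene, was 48.5, 50.3, 19 and 30.5 TPM in sham 1 to 4 and 3.82, 4.2, 7.68 and 11.1 TPM in UUO 1 to 4. It fell by 2.31 ± 0.39 in cTAL (adjusted p = 0.00755) and was 0.61 ± 0.25 in CCD, a difference of -2.92 ± 0.36 (adjusted p = 0.0307). The leukocyte genes Fcer1g, Lgals9, Clec4a3 and Plek, and Fam167b, also differed, by -1.80 to -2.72. Of 27 interferon and antigen presentation genes tested in cTAL, 1 rose (Irf1) and 1 fell (Ifi27), with a median of -0.49. That was 7.41% called, against 11.7% of all genes. The rise was kept only without sham 2, UUO 1 or UUO 2, and the count of falls was 3 without UUO 4, 1 without sham 3 and 0 without each of the others. Krt19 was 3.37 ± 0.43 in CCD and -0.26 ± 0.32 in cTAL, and that difference of -3.62 ± 0.74 did not pass (adjusted p = 0.0681). Several of the strongest changes showed no difference past the threshold: Tnfrsf12a was 4.37 ± 0.36 in CCD (difference -0.066 ± 0.37, adjusted p = 0.957), Hbegf 2.81 ± 0.46 (difference 0.60 ± 0.54, adjusted p = 0.69), Kcnj1 -1.64 ± 0.28 (difference 0.63 ± 0.34, adjusted p = 0.451) and Mt2A 1.98 ± 0.23 (difference 1.84 ± 0.35, adjusted p = 0.0552).

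**Figure D4:**
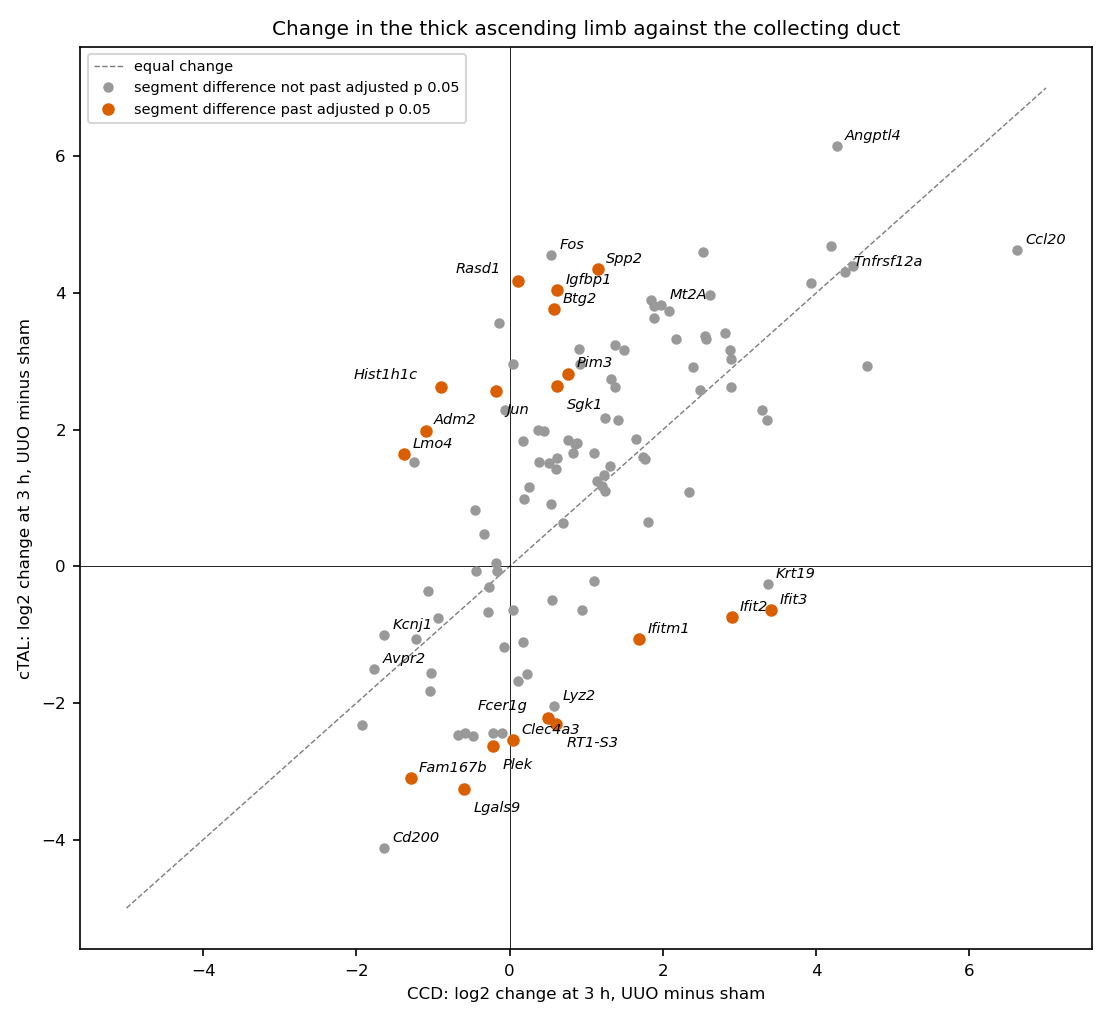
Log2 change of UUO minus sham at 3 h in CCD (horizontal) and cTAL (vertical) for 114 of the genes named here, all tested in both. Orange marks genes whose segment difference passed, and the dashed line is equal change. Hist1h1c, Rasd1, Igfbp1 and Btg2 stand above the line, and Ifit3, Ifit2 and RT1-S3 below it.

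At 30 min few genes passed in the same segment. Of 10993 genes, 1 passed (0.00910%), and 250 had an unadjusted p under 0.05. The 1 was a locus with no gene symbol, at 0 in all 4 sham libraries and 18.65 to 25.05 TPM in UUO. It passed the filter through UUO only, so its call is not read as a test. None of the 1173 genes called at 3 h passed at 30 min. The values of the time points come from tables made separately, and no difference between them was tested. Fos was 53.5 ± 27.7 TPM in sham and 305 ± 163 TPM in UUO at 30 min (change 2.53 ± 0.46, adjusted p = 0.633), and Atf3 was 14.8 ± 13.8 TPM in sham and 77 ± 94.6 TPM in UUO (change 2.11 ± 0.96, adjusted p = 1). Mt2A, at 1588 ± 345 TPM in sham and 2073 ± 952 TPM in UUO, was 0.26 ± 0.35. Tnfrsf12a and Hbegf were at -0.17 ± 0.46 and 0.22 ± 0.41, and Kcnj1 and Avpr2 at -0.15 ± 0.14 and 0.064 ± 0.16. The median of the AP-1 list was 0.92 at 30 min and 2.57 at 3 h, while that of the NF-kB list was -0.00045 and 0.64.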

How the data were processed

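The deposited tables, 1 for each time point, hold TPM, an abundance scaled to gene length and library total, for 32883 gene rows, made by the authors. The labels' protocols name SMARTer amplification with 15 PCR cycles and Nextera XT libraries, and the submitters' processing notes name STAR 2.7.3, RSEM 1.3.3 and the build Rnor_6.0. Whether counting used strand is not given in the sources used here. The 8 whole-kidney samples were not analysed here.

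Values were taken as log2(TPM + 1), a gene was kept if 4 or more of the 8 libraries reached 1 TPM, and UUO was compared with sham by limma 3.58.1 (R 4.3.3) with a mean-variance trend and Benjamini-Hochberg adjustment at 0.05 over all genes tested. The segment difference used, for each number, the cTAL value minus the mean of the 2 CCD libraries. The titles give cTAL and CCD of an arm the same numbers, but do not say that a number is 1 rat. Deviations of same-numbered cTAL and CCD values from their group means had correlations of 0.066 (sham 4) to 0.35 (UUO 1). Marker sums were compared by exact two-sided permutation. The fit was tested on simulated data with known changes. Same-numbered UUO and sham libraries did not deviate together (correlations of -0.12 to 0.050), so the numbers were not used as a block.

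Named genes were the 15 largest rises and 15 largest falls without overlap and averaging 5 TPM or more in 1 arm or both, leaving out locus names and shared symbols (105 called genes), up to 5 called members of each list, a fixed list of limb and injury genes, and the 8 largest segment differences each way. The gene lists, markers and named genes were chosen with earlier results of these data known. The alternatives were other pseudocounts, filters, scalings, weights, a replicate block and leaving out each library. Chosen after the data were seen were the proximal tubule and macrophage covariates, the fit without UUO 1 and 2, and the metal response motif. Some genes that the rule would name are not reported here.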

Additional observations from a re-analysis of the deposited data

Results flagged for a closer look

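Among 276 groups of 4 libraries checked (122 genes and the marker sums, in each arm), 21 held a library whose distance from its nearest neighbour took up most of the group's range, and chance flags about 1 in 20 groups. UUO 1 was the low library for Socs3 at 2.71 TPM, Lcn2 at 1.56 TPM, Ptger3 at 2.21 TPM and the thin limb sum at 47.2 TPM, and the high one for Gadd45a at 772.7 TPM. UUO 2 was low for Lyz2 at 67.2 TPM and the macrophage sum at 131 TPM. UUO 3 was high for the endothelial sum at 98.1 TPM, and UUO 4 was apart for Birc3 at 40.7 TPM and Hyls1 at 4.94 TPM. In sham, number 1 was apart for Wnk1 at 25.2 TPM, Btg2 at 19.2 TPM, Igfbp1 at 33.5 TPM, S100a6 at 65.2 TPM and the principal cell sum at 618 TPM. Sham 2 was apart for Nppc at 0.63 TPM, Lrrc66 at 27.8 TPM and the red blood cell sum at 29.8 TPM. Sham 3 was apart for Hbegf at 2.1 TPM and Hyls1 at 18.8 TPM, and sham 4 for Fth1 at 10826 TPM.

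For 21 genes the change at 3 h differed between cTAL and CCD by limma's test of the difference. The cTAL minus CCD difference in log2 change was 5.53 for Nppc, 4.07 for Rasd1, 3.52 for Hist1h1c, 3.42 for Igfbp1, 3.20 for Spp2, 3.19 for Btg2, 3.08 for Adm2, 3.02 for Lmo4, 2.75 for Jun, 2.06 for Pim3 and 2.03 for Sgk1. It was -4.06 for Ifit3, -3.64 for Ifit2, -2.92 for RT1-S3, -2.75 for Ifitm1, -2.72 for Fcer1g, -2.65 for Lgals9, -2.59 for Clec4a3, -2.40 for Plek, -2.25 for Rgs18 and -1.80 for Fam167b. Nppc and Rgs18 passed the filter in cTAL only through the arm where they were high, so their differences are values and not tests. The marker sums of leukocytes and proximal tubule differed between the arms in cTAL, and their part in these differences was not tested.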

How the results depend on the processing

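The count of 1173 genes at 3 h (407 higher, 766 lower) was 760 with no filter (241 higher), 2234 with all 3 h groups in 1 fit (707 higher, 1527 lower), 264 with the proximal tubule sum as covariate (234 higher, 30 lower), 9 with the macrophage sum (9 higher, 0 lower) and 504 without UUO 1 and 2 together (154 higher, 350 lower). After median-of-ratios rescaling 414 were lower. Without 1 library it was 439 to 988, with 196 to 365 higher and 235 to 623 lower. The segment difference, 51 genes, was 97 with no pairing, 117 with CCD library 1 only, 10 with CCD library 2 only and 1 to 35 without 1 replicate. The 30 min count, 1, was 0 to 1. It was 0 in each fit that left out a UUO library, where that locus no longer met the filter. With the replicate numbers as a block the 3 h count was 580 (252 higher, 328 lower; 557 of the 1173 were kept) and the segment count 4; no number paired the arms.

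Of 122 genes of the text checked individually, 105 passed. Of these 105, 77 did so in all 8 fits without 1 library, 89 with the block, 101 after median-of-ratios rescaling and 71 without UUO 1 and 2. Called genes named only within the count of a list, such as Dusp14, Il34, Tnfsf10 and Ndufs8, are not among the 105. Over all 1173 calls, 823 were not called, or not tested, in at least 1 fit without 1 library. Signs turned for the genes below, and the cause was not tested. Slc12a1 was -0.14 with array weights, -0.23 to 0.22 without 1 library, -0.71 with the proximal tubule covariate, -0.86 with the macrophage covariate and -0.43 without UUO 1 and 2. With the proximal tubule covariate Pth1r was 0.46, Ptger3 2.35, Gpx3 -0.65, Slc22a6 -0.29, Ifit3 2.65, Ifit2 1.81 and Ifitm1 0.38. With the macrophage covariate Pth1r was 0.22, Krt19 0.33, Cd68 0.076, Ifit3 0.55, Ptgs2 0.54 and Aqp2 -0.59. After median-of-ratios rescaling Cldn16 was 0.081 and Egf 0.082. Without UUO 1 and 2 Ptger3 was 0.069 and Ifit3 0.35. Without 1 library Cldn16 was -0.17 to 0.0055 (positive without UUO 3), Ptger3 -1.24 to 0.059 (positive without UUO 1) and Egf -0.22 to 0.024 (positive without sham 3 or UUO 3), and Slc12a1 was negative without sham 1 or UUO 2.

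Depth is not known from TPM, so the sampling error of low genes could not be separated from the spread between libraries.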
